A study of Mus musculus with 24 samples.

Results

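The transcripts described here are spliced RNAs that were assembled from short reads of mouse fibroblasts and that carry no reference gene name. An intron chain is the exact series of introns of a transcript. A member is a chain with at least 2 exons on a known strand that was assembled in at least 2 of the 24 libraries and whose exons touch no exon of a named transcript in any library, on either strand. In all, 10059 of the 323105 spliced chains in the files met this rule, and they fall into 6664 loci, each a set of members whose exons overlap on 1 strand. Of 59024 unnamed spliced chains that touch no named exon, 48965 were assembled in 1 library only and are no members. The members were thus chosen by their assembly in the same 24 libraries, so how often they were assembled is a description with no test.

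The cells were C3H 10T1/2, fibroblasts grown from mouse embryos that MyoD can turn into muscle. There were 3 lines: wild type, LncMyoD-KO clone 1 and LncMyoD-KO clone 2, the last 2 being knockouts of the long noncoding RNA LncMyoD. Each line had no treatment, a MyoD adenovirus, a plasmid that carries LncMyoD, or the virus and the plasmid together, with 2 libraries in each of the 12 groups. Cells grew in 10% fetal bovine serum, and the labels give 2% horse serum once transdifferentiation with MyoD had been induced, so the medium and MyoD cannot be told apart. No group with an empty virus or an empty plasmid was analysed here, and each knockout line is 1 clone, so genotype, clone and any batch of a line cannot be told apart. Whether the 2 libraries of a group were separate cultures is not in the labels, and p-values reflect just the differences among these libraries, which may be technical.

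MyoD is a basic helix-loop-helix transcription factor that binds E-boxes, short DNA motifs of the form CANNTG, and switches on the genes of the contractile apparatus. An assembler joins overlapping spliced reads into transcripts and gives a piece a gene name only where it fits the annotation well enough. Spliced pieces without a name can therefore be unlisted noncoding RNAs, parts of long genes that the reads did not join up, antisense RNAs or products of repeats.

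The working name of these transcripts, unannotated and between genes, held for a minority of them. Against the GENCODE vM21 annotation, 4235 members (42.1%) contained at least 1 annotated intron of a gene, and in 3767 of these every intron was annotated. Only 2290 members (22.8%) lay between genes. A further 1359 (13.5%) lay inside a gene on its opposite strand, 830 (8.25%) overlapped an annotated exon without an annotated intron, 755 (7.51%) lay inside a gene on its own strand, 420 (4.18%) crossed a gene border and 170 (1.69%) lay on unplaced scaffolds. The members with annotated introns belong to 1475 genes, of which 662 also had a named transcript elsewhere in some library and 813 had none. The genes with the most members were Syne1 with 29, Plec with 28 and Ttn with 26, which code for very large proteins of the nuclear envelope, the cytoskeletal linker system and the sarcomere. They are called below by their place and host gene, not as intergenic RNAs.

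**Figure D1:**
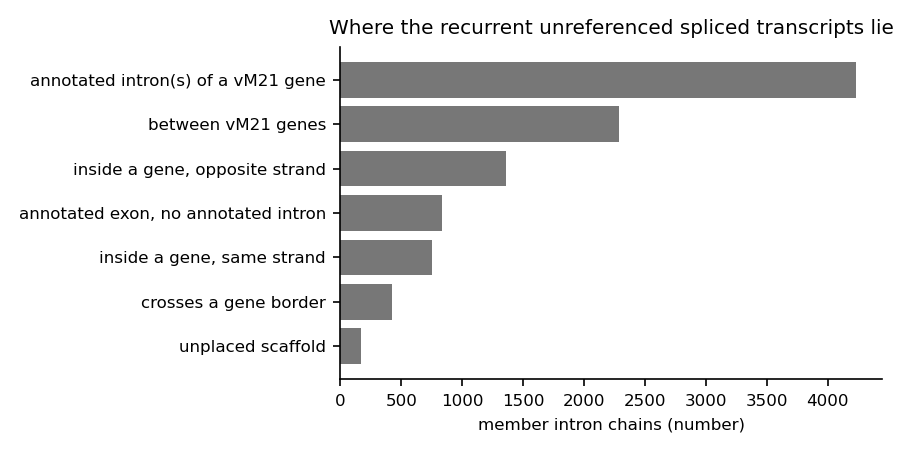
Number of member intron chains (x axis) in each kind of place relative to the GENCODE vM21 genes (y axis), all 24 libraries together. The longest bar is the 4235 members with annotated introns of a gene, and the 2290 members between genes form the second.

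The exon junctions that follow are shown because they mark which part of a gene a member held. Each line gives the last 15 bases of an exon in lower case and the first 15 bases of the next exon in capitals, 5′ to 3′ on the transcript's strand, taken from the GENCODE vM21 transcript that has the member's intron.
Ttn, exons 165 and 166 of 192: cagtgaaagtacaagATACACCAGGAAAAG
Myh1, exons 36 and 37 of 40: aaagccatcactgatGCCGCCATGATGGCG
Ryr1, exons 98 and 99 of 106: gggcctgctgacatgGATCATGTCTATCGA
Best3, exons 4 and 5 of 10: acgtggtcgaagcagGTTTTATGACGGCAG
Sgca, exons 2 and 3 of 10: ttccagaacacgttgCGGTGCCACCCACTG
Gars, exons 12 and 13 of 17: gctgagtgagaaaggGGAATTCACTATTGA
Tead1, exons 7 and 8 of 14: ccggggggtccggggTTCTGGCCTGGGATG
The Ttn, Myh1 and Ryr1 junctions lie in the last part of these long genes, whereas those of Best3 and Sgca lie near the middle or the start. The introns between these exons are chr2:76727234-76727345 (minus strand) in Ttn, chr11:67221426-67221512 (plus strand) in Myh1 and chr7:29009568-29009660 (minus strand) in Ryr1, build GRCm38.

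In 508 members the 5′ end lay within 100 bases of a RefSeq gene start, among them 112 of the between-gene members. The 2 start windows below, from RefSeq on GRCm38.p6, each run from 250 bases before the start to 50 after it. They are shown because a member began within 2 bases of the Gm19378 start and within 17 bases of the Gm4631 start. Gm19378 is a predicted noncoding gene that vM21 does not list, and the member there was far higher in clone 2. The member at Gm4631 is among the named results of the MyoD comparison. Capitals mark every match to CANNTG, a motif that reads the same on both strands.
Gm19378, chr15:89767365-89767664 (plus strand): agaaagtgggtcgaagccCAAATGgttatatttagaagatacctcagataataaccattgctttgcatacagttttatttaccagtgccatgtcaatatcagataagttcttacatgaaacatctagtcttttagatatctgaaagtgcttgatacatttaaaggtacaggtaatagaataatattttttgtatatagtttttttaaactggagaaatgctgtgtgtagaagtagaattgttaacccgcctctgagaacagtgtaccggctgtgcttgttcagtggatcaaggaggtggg
Gm4631, chr2:175338244-175338543 (minus strand): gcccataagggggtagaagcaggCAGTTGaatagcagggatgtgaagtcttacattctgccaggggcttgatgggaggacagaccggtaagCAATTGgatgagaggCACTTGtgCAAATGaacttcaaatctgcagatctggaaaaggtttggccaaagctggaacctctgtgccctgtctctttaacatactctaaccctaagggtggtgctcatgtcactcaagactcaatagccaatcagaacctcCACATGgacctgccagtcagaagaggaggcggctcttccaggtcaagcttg
The Gm19378 window holds 1 match and the Gm4631 window 5, and CAGCTG, the form of the E-box that is a subset of CANNTG, occurs in neither. Of all 32851 RefSeq windows of this length, 72.3% hold CANNTG and 16.3% hold CAGCTG. Of the 308 windows at a member's start, 70.1% hold CANNTG and 15.9% hold CAGCTG, and of the 64 at a between-gene member's start, 65.6% and 21.9% do. Among the 8 windows at a locus that was higher with MyoD in any line, 7 hold CANNTG and 2 hold CAGCTG, which is too few to compare with those shares.

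Members were short, simple and assembled in few libraries. Their median number of exons was 2, against 5 for the 42018 named chains found in at least 2 libraries, and 6777 members had exactly 2 exons. The median spliced length was 883 nt, against 1150 nt for the named chains. The median number of libraries was 2 for members and 11 for named chains. Members lay on both strands, 5092 on plus and 4967 on minus, and the library kit does not mark strand, so the strand is the assembler's choice and reads of a gene and of RNA opposite to it cannot be told apart.

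TPM, the abundance of a transcript scaled for its length and for the total of its library, is the deposited value used throughout. The highest TPM that a member reached in any library had a median of 2.03, against 2.7 for the named chains. Just inside the rule, the 6179 members assembled in exactly 2 libraries had a median highest TPM of 1.65. Just outside it, the 48965 chains assembled in 1 library had a median of 1.18. That is 1 value per chain, whereas 1.65 is from the higher of 2 values, so these medians are not a like comparison. For 484 of the 6179, the 2 libraries were the replicates of 1 group, for 2664 they were different groups of 1 line, and for 3031 they came from different lines. At the other end, 181 members were assembled in at least 12 libraries and 4 in all 24.

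The share of members seen in clone 2 alone was 23.1%, beside 18.8% of named chains, and 21.7% were seen in wild type and clone 1 but not in clone 2, beside 2.06% of named chains. All 3 lines shared 10.3% of members and 57.6% of named chains. Wild type alone held 9.14% of members and clone 1 alone 8.54%, beside 1.25% and 0.224% of named chains. A chain in exactly 2 libraries, as 6179 members were, cannot occur in all 3 lines. The part of this in the shares was not tested.

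Between genes, 669 of the 2290 members lay in the span of a gene that RefSeq lists, 485 of them in a long noncoding RNA span and 158 in a protein-coding span, and 1621 lay outside any. The median distance to the nearest vM21 gene was 14410 bases and the largest was 469737 bases, with 439 members over 50 kb away. The nearest gene was arranged head to head with 659 members, tail to tail with 574, downstream of 544 on the same strand and upstream of 513 on the same strand. Among the 265 members within 1 kb of a gene, 153 were head to head with it, which is the arrangement of divergent transcription from a shared start region. Of the other close members, 56 were tail to tail, 30 lay downstream of the gene and 26 upstream of it.

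Assembled coverage summed to 2.43 to 5.93 gigabases per library, lowest in clone 1. Read numbers per transcript are unknown, and values carry no counting interval. All 10 fibroblast markers fixed for the label check were at 1 TPM or more in every wild type library, with a summed level of 372 to 537 TPM. The 8 muscle markers summed to at most 6.5 TPM without MyoD and to 1310 to 3750 TPM with it. With MyoD, 5 of these 8 were at 1 TPM or more in all 4 wild type libraries, 1 in clone 1 and 7 in clone 2. At 0 in all 4 were 2 in wild type, 3 in clone 1 and 1 in clone 2. The 8 include Myod1, the gene of MyoD, and the part of the virus in the sums was not tested. In clone 1 the fibroblast markers summed to 196 to 245 TPM, and 7 of 10 without and 6 of 10 with MyoD were at 1 TPM or more in all 4 libraries, with 1 at 0 in all 4 with MyoD. In clone 2 they summed to 8660 to 15000 TPM without MyoD and 2870 to 4540 with it. The part of these markers in the results below was not tested. The markers of epithelium were at 0 in every library, and those of macrophage, endothelium and neuron summed to at most 2.75 TPM. Clone 2 stood apart as a whole: the median feature was 0.92 higher on the log2 scale than in wild type. After median-of-ratios scaling, which sets the typical gene equal between libraries, that median was 0.07. Each clone 2 locus test is therefore given with its value under that scaling where the call or the direction changed.

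Wild type libraries held 1051 to 1623 members, those of clone 1 held 678 to 1391, and those of clone 2 held 1092 to 2083. In clone 2 the mean was 1234 ± 112 with MyoD and 1890 ± 158 without it (SD, n = 4 each), and the groups did not overlap. In wild type it was 1255 ± 252 with and 1201 ± 46.6 without MyoD, and in clone 1 it was 1066 ± 185 and 1110 ± 323 (SD, n = 4 each), and both pairs overlapped. Over all treatments clone 2 held 1562 ± 373 members and wild type 1228 ± 170 (SD, n = 8 each). These numbers have no test, since assembly in the same libraries chose the members. Clone 2 libraries also held more spliced chains of any kind, 40091 to 54909 against 34930 to 39871 in wild type. Within clone 2 such chains were fewer with MyoD too, 40091 to 43707 against 50037 to 54909 without it. Members were 2.72% to 3.1% of the chains of a clone 2 library with MyoD and 3.39% to 3.83% without. The part of these chain numbers in the member count was not tested.

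The summed TPM of members, likewise given without a test, rested on few loci and on which exact chain recurred. Over all members it was 3680 ± 1270 TPM with MyoD and 52620 ± 51400 without in wild type (SD, n = 4 each), 19990 ± 10700 and 5248 ± 2120 in clone 1, and 8073 ± 1600 and 25300 ± 18300 in clone 2. Over all treatments it was 28150 ± 42600 TPM in wild type, 12620 ± 10700 in clone 1 and 16680 ± 15200 in clone 2 (SD, n = 8 each). With chains in at least 3 libraries as members, the wild type difference of -48940 TPM with MyoD became -333.4. Without the members of the 10 loci of highest mean TPM, a choice made after seeing the data, the wild type sums were 2629 ± 511 with MyoD and 2497 ± 497 TPM without, and the clone 1 sums 3530 ± 1070 and 2312 ± 544, with overlap in both. In clone 2 they were 6268 ± 523 with and 9441 ± 1230 without MyoD, with no overlap. Over all treatments the sum without these loci was 7854 ± 1910 TPM in clone 2 and 2563 ± 472 in wild type (SD, n = 8 each), the opposite order to that over all members. Between-gene members outside these loci summed to 1299 ± 143 TPM in clone 2 and 372.6 ± 86.9 in wild type. None of these sums was computed after median-of-ratios scaling, so whether clone 2 stays above wild type there is unknown. Under that scaling the member loci called between these lines turned from 706 higher and 95 lower in clone 2 to 78 and 340.

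**Figure D2:**
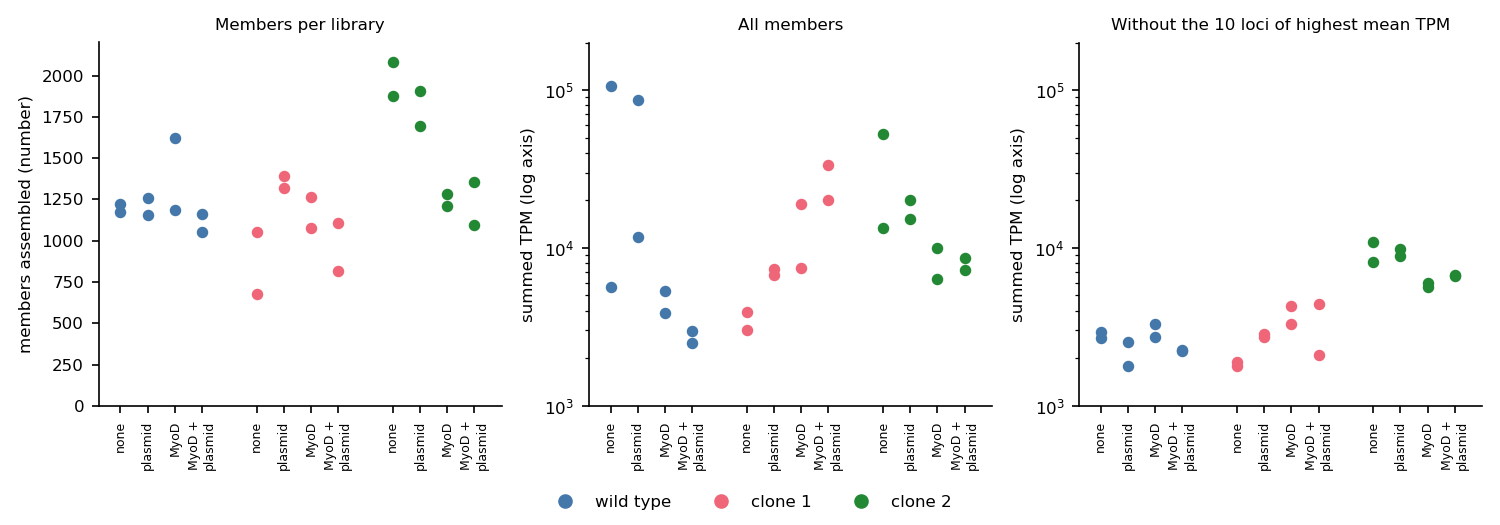
Each point is 1 library, by line and treatment. Left: number of members assembled. Middle and right: summed TPM of members on a log axis, with all members and without the 10 loci of highest mean TPM. The spread within groups in the middle panel, up to 106500 TPM in 1 untreated wild type library, is gone in the right panel.

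The 10 loci lie in 5 windows, whose values below sum every member locus in the window. The window chr6:3200766-3201647 held 1 locus on each strand, 6225 to 6348 bases from the predicted gene Gm2651. Its summed locus TPM reached 102000 in 1 untreated wild type library and 73300 in 1 clone 1 library with plasmid, was above 0 in 6 of 8 wild type and 4 of 8 clone 1 libraries, and was 0 in all 8 clone 2 libraries. A locus TPM sums all unnamed spliced transcripts at the locus, also chains assembled in 1 library, so it can exceed the sum over members: wild type with MyoD replicate 1 had 83800 TPM on the plus strand there, from such a chain. The window's presence differed between the 2 replicates of most groups where it was seen.

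The other windows were chr2:98662232-98667334 at the predicted genes Gm10800 and Gm10801, chr14:19416125-19419703 at Gm21738, chr9:3000001-3025590 at Gm10722 and Gm26870, and chrUn_JH584304:67867-114264. All 4 were above 0 in every library. On chr2 the median was 702 TPM in wild type, 2570 in clone 1 and 2700 in clone 2, and untreated clone 2 replicate 1 reached 26700. That library was also the highest at the other 3, with 8610 TPM on chr14, 6800 on chr9 and 11600 on the scaffold, so 1 library sets the upper end of each range.

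Changes of single loci were tested on log2(TPM + 1) with limma, a linear model that shares information on the spread across features, over 16695 named genes and the 4798 member loci that reached 1 TPM in 2 or more libraries. The other 1866 loci did not pass that filter. Calls needed an adjusted p under 0.05 together with a log2 change of 1 or more in either direction. A locus that passed the filter only through the group where it was high had to differ there, so the counts below are descriptions beside the share of all 21493 features that was called. For the same reason, the p-value of such a locus describes its values and is no evidence of a change. The counts at an unadjusted p, and those under other scalings or settings, have no share of all features beside them here. Such counts do not show whether members differ from all features. An assembled transcript listed at 0 can be a failed assembly, and a fitted change against a group at 0 depends on the pseudocount of 1 and is no bound.

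With MyoD in wild type 4 member loci rose, in Ttn, Best3, Sgca and Zpbp (0.0834% of 4798, beside 0.116% of all features) and 1 fell (0.0208%, beside 0.0186%), in all 0.104% of member loci beside 0.135% of all features. All 5 contain annotated introns, and no between-gene locus was called. At an unadjusted p under 0.05 there were 177 member loci. The median change of member loci and of all features was 0.

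The largest rise was a locus of 4 members in the last part of Ttn, which codes for titin, the giant elastic protein of the sarcomere (chr2:76716682-76732198, minus strand). Its TPM was 0, 1.14, 0 and 0 in the wild type libraries without MyoD and 14.8, 23.9, 10.6 and 15.9 with it. The ranges were far apart, and the log2 change was 3.78 ± 0.27 (SE; limma adjusted p = 2.18e-06). In clone 1 it was 0 in all 4 libraries without MyoD and 6.78, 8.29, 6.63 and 5.49 with it (2.95 ± 0.27, limma adjusted p = 8.6e-05). In clone 2 it was 0 in all 4 without MyoD and 5.54, 8.13, 4.26 and 8.65 with it (2.89 ± 0.27, limma adjusted p = 2.66e-06). Named Ttn transcripts stayed at 5.34 TPM or less in every library and were below this locus in each library with MyoD.

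Best3, a member of the bestrophin anion channel family, had a locus at 0 in all 4 wild type libraries without MyoD and at 4.68, 5.59, 5.27 and 6.77 TPM with it (log2 change 2.71 ± 0.32, limma adjusted p = 0.00101). With MyoD it was at 2.28, 2.68, 0 and 2.55 TPM in clone 1 and at 0.905, 2.54, 0 and 0 in clone 2, neither of which was called. Sgca, which codes for alpha-sarcoglycan of the dystrophin complex, had a locus of 6 members at 2.97, 1.92, 1.4 and 1.49 TPM without MyoD and 15, 13.1, 14.1 and 6.53 with it (2.14 ± 0.31, limma adjusted p = 0.00557). This locus was above 0 in all 24 libraries, so its change does not rest on a group at 0. Neither Best3 nor Sgca had a named transcript above 0 TPM in any library.

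Zpbp, known for a protein of the sperm acrosome, had a locus at 0 without MyoD and at 2.38, 1.22, 2.25 and 4.41 TPM with it in wild type (log2 change 1.76 ± 0.30, limma adjusted p = 0.0227), but leaving out 1 library ended that call in 6 of 8 cases. Scn8a, a voltage-gated sodium channel, had the only fall, from 0.379, 1.83, 1.61 and 0.808 TPM to 0 in all 4 libraries (-1.05 ± 0.19, limma adjusted p = 0.0347). The Scn8a locus passed the filter only through wild type without MyoD, so that p-value is a description. With every transcript over that locus added, Scn8a was 6.37, 4.48, 4.43 and 0.812 TPM without MyoD and 1.7, 2.11, 3.79 and 0.0592 with it, the ranges overlapped, and the call was lost (limma adjusted p = 1). The 5 calls became 3 without wild type plasmid replicate 1, 10 without either clone 2 MyoD replicate, and 9 without either clone 2 replicate with MyoD and plasmid.

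In clone 1, 4 member loci rose with MyoD (0.0834%, beside 0.0512% of all features) and 2 fell (0.0417%, beside 0.0558%), in all 0.125% beside 0.107%, and 280 had an unadjusted p under 0.05. Besides the Ttn locus above, a second Ttn locus (chr2:76876920-76880530, minus strand) was at 0.756, 0, 0 and 0 TPM without MyoD and 5.7, 5.17, 1.17 and 1.54 with it (log2 change 1.76 ± 0.28, limma adjusted p = 0.0179). A locus in Arhgap44 went from 0 in all 4 to 4, 2.13, 1.9 and 1.83 TPM (1.75 ± 0.33, limma adjusted p = 0.0466). A between-gene locus 34523 bases from Gm48379 (chr10:106392642-106399359, minus strand) was at 0, 0, 0.399 and 0 TPM without MyoD and 1.5, 1.48, 1.66 and 2.72 with it (1.36 ± 0.22, limma adjusted p = 0.0179). This between-gene locus passed the filter only through clone 1 with MyoD, so its p-value is a description.

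Leaving out 1 library ended the call in 6 of 8 cases for Arhgap44 and in 5 of 8 each for the second Ttn locus and the Gm48379 locus.

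The clone 1 falls rest on few values. A locus opposite to Gm48197 (chr10:38303074-38340028, plus strand) was at 3.52, 10.3, 0.372 and 2.11 TPM without MyoD and 0 in all 4 with it (-1.94 ± 0.34, limma adjusted p = 0.0306), but with every transcript over it added the change was -0.07 and the call was lost. The other fall, a locus 222704 bases from Gm14314 that is outside the naming rule, was at 0, 0, 3.97 and 2.74 TPM without MyoD and 0 with it (-1.05 ± 0.13, limma adjusted p = 0.00206). This locus passed the filter only through clone 1 with plasmid alone, so its p-value is a description. The 6 calls became 63 without clone 1 MyoD replicate 2, 61 without clone 1 MyoD and plasmid replicate 1, and 2 without clone 1 plasmid replicate 2, so the count depends on single libraries. The replicates of clone 1 MyoD correlated at r = 0.762 and those of clone 1 MyoD and plasmid at 0.79, over all tested features on the log2 scale, against 0.851 to 0.912 in the other groups, and the part of this in the count was not tested.

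In clone 2 far more loci changed with MyoD, and most fell: 94 rose (1.96% of member loci, beside 1.59% of all features) and 367 fell (7.65%, beside 14.7%), in all 9.61% beside 16.3%. The median change was -0.11 for member loci and -0.28 for all features. After median-of-ratios scaling, 13 rose and 22 fell, all of them among the 461, so most of these calls depend on the scaling. By kind of place, 7.77% of tested between-gene loci were called, 21 higher and 66 lower, and 10.8% of loci with annotated introns, 39 higher and 154 lower. At an unadjusted p under 0.05 there were 1158.

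Among the rises in clone 2 were pieces of Myh1 and Ryr1. A locus near the end of Myh1, a fast myosin heavy chain, was at 0 in all 4 libraries without MyoD and at 14.2, 5.85, 5.72 and 8.31 TPM with it (chr11:67221302-67224564, plus strand; log2 change 3.17 ± 0.22, limma adjusted p = 1.13e-07). The same locus was at 0.529 to 0.952 TPM in wild type with MyoD and 0 in clone 1. A locus near the end of Ryr1, the calcium release channel of the sarcoplasmic reticulum, was above 0 only in the 4 clone 2 libraries with MyoD, at 9.95, 7.3, 7.45 and 3.63 TPM (chr7:29003343-29009793, minus strand; 2.95 ± 0.19, limma adjusted p = 3.78e-08). The Myh1 and Ryr1 loci both passed the filter only through those 4 clone 2 libraries with MyoD, so their p-values are descriptions. The locus opposite to Gm48197 rose here, from 2.59, 4.39, 8.63 and 15.6 TPM to 53.8, 53.8, 18.9 and 41.4 (2.42 ± 0.34, limma adjusted p = 0.000102), and it also rose with every transcript over it added (2.16).

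**Figure D3:**
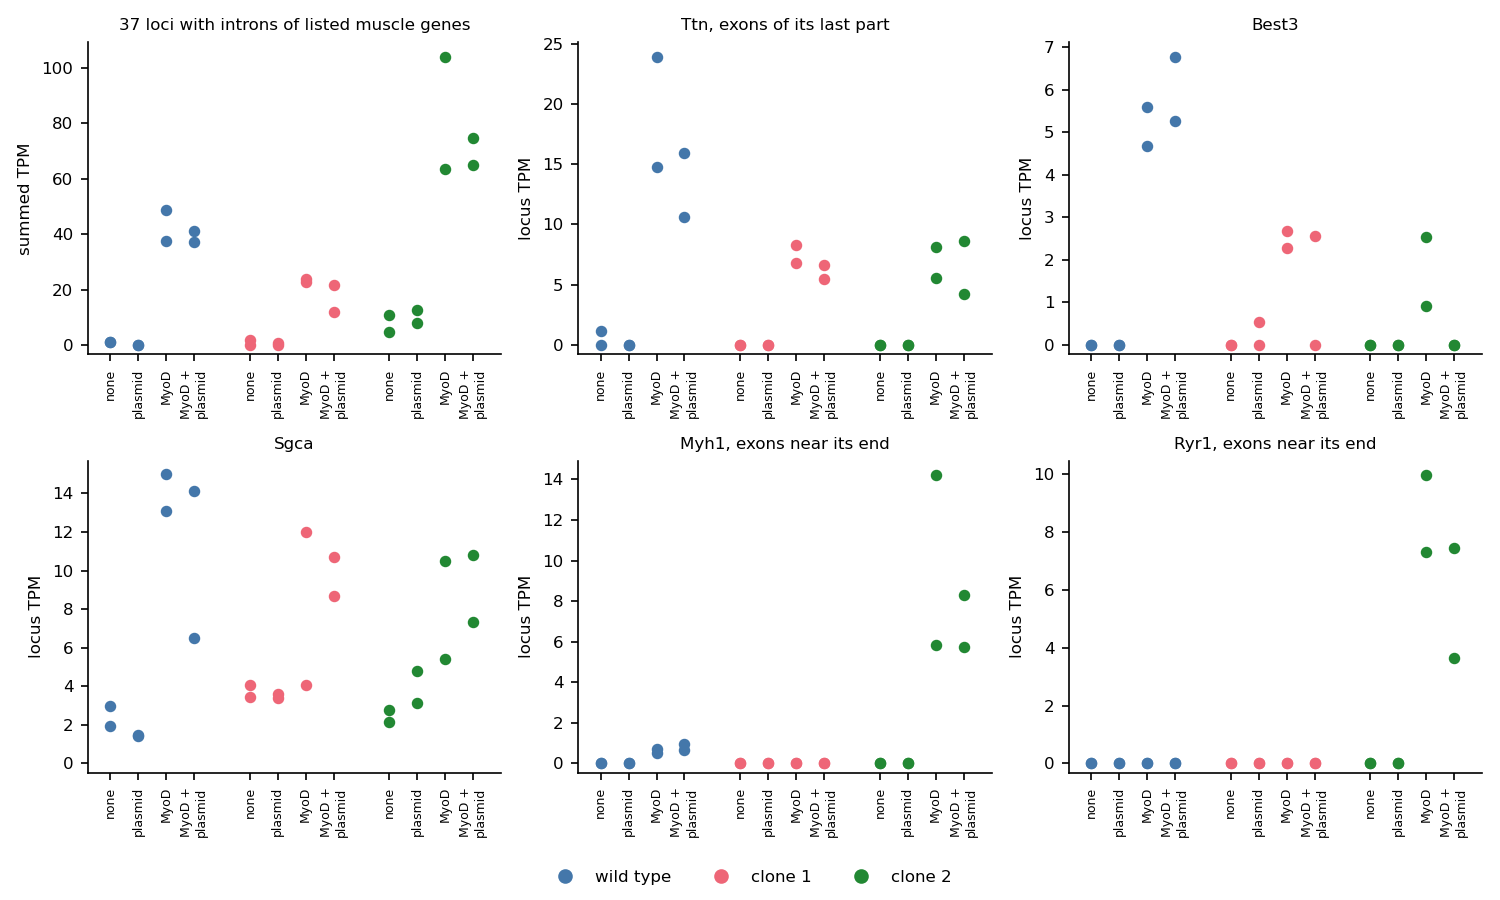
Each point is 1 library, by line and treatment. The first panel is the summed TPM of the 37 loci with introns of listed muscle genes, and the others are the locus TPM at Ttn, Best3, Sgca, Myh1 and Ryr1. The 37 loci sum to at most 1.83 TPM without MyoD in wild type and clone 1 and to 37.3 to 48.6 TPM with MyoD in wild type.

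Gars, the glycyl-tRNA synthetase gene, shows how a change of a piece can differ from that of its gene. Its member locus (chr6:55069228-55079734, plus strand) was at 0 in the 4 clone 2 libraries without MyoD and at 102, 90.6, 121 and 111 TPM with it (log2 change 6.73 ± 0.34, limma adjusted p = 3.28e-09). The TPM of every transcript over the locus was 52.9, 55.9, 67.8 and 62.2 without MyoD and 102, 90.6, 121 and 111 with it, a log2 change of 0.82 that was not called (limma adjusted p = 0.151). Named Gars transcripts held only 0.0639, 0.644, 0.129 and 0.0804 TPM in those 4 libraries without MyoD. Nearly all of the TPM without MyoD thus sat in unnamed transcripts over the locus that touch a named exon, which are no members. Over all loci, 1612 of 6664 had some other transcript over them, and of the 461 clone 2 calls 418 (90.7%) were also called with those added.

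The largest falls in clone 2 were loci opposite to or inside genes. A locus opposite to Dstn, which codes for the actin-severing protein destrin, was at 86.1, 25.8, 45.8 and 29.5 TPM without MyoD and 0, 0, 6.27 and 0 with it (chr2:143919213-143926269, minus strand; -4.70 ± 0.54, limma adjusted p = 1.72e-05). Named Dstn transcripts on the other strand were at 472 to 707 TPM without and 496 to 566 with MyoD, which overlap. A locus opposite to Stat3, a cytokine-activated transcription factor, went from 26.1, 7.03, 19.5 and 17.9 TPM to 0 (-4.09 ± 0.47, limma adjusted p = 1.85e-05). Named Stat3 transcripts on the other strand were at 88.5, 226, 178 and 220 TPM without and 81.7, 63.2, 94.4 and 87.3 with MyoD. The Stat3 antisense call was lost after median-of-ratios scaling (limma adjusted p = 0.0589).

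A locus opposite to Mrc2, a collagen uptake receptor, went from 34.3, 22.9, 27.4 and 24.6 TPM to 0, 0, 19.6 and 0 (-3.72 ± 0.67, limma adjusted p = 0.000985), and it too was lost after that scaling (limma adjusted p = 0.0561). Named Mrc2 transcripts on the other strand were also lower, at 45.7, 78.8, 99.1 and 73.4 TPM without and 35.6, 0.00219, 22.1 and 28.3 with MyoD, and these strands cannot be told apart by the kit. In Tead1, a transcription factor that works with YAP, a locus of 5 members was at 7.31, 7.54, 10 and 17.5 TPM without MyoD and 0 in all 4 libraries with it (chr7:112853190-112903220, plus strand; -3.46 ± 0.23, limma adjusted p = 5.79e-08). Tead1 was also lower after median-of-ratios scaling (-1.43, limma adjusted p = 0.00132) and with every transcript over it added (-3.57). The same Tead1 locus was at 8.19 to 12.9 TPM with MyoD in wild type and 6.43 to 10.7 in clone 1.

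Another named fall was a locus in the chr9 window at Gm26870, from 3860, 377, 367 and 371 TPM to 53.7, 195, 18.3 and 3.6 (-4.42 ± 0.99, limma adjusted p = 0.00439). The high first value is from untreated clone 2 replicate 1. The antisense loci were near 0 in wild type and clone 1 in nearly all libraries: Dstn reached 3.34 TPM, Stat3 4.13 and Mrc2 3.84 at most there.

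The list of 54 muscle genes used with these data had 37 member loci with introns of 8 of its genes, 17 of them in Ttn, 5 each in Myh1 and Neb, 4 in Myh3, 3 in Ryr1 and 1 each in Chrnb1, Mylpf and Tnnt3. In wild type 2 of the 37 were assembled in any library without MyoD and 35 with it, in clone 1 it was 3 and 22, and in clone 2 it was 8 and 34. Their summed TPM was 0 to 1.14 without and 37.3 to 48.6 with MyoD in wild type, 0 to 1.83 and 11.9 to 23.7 in clone 1, and 4.77 to 12.8 and 63.4 to 104 in clone 2. In each line the libraries with MyoD lay above those without.

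Of these loci 29 passed the filter, and a locus that passed it only through libraries with MyoD had to be higher there. Called higher were 1 in wild type, 2 in clone 1 and 11 in clone 2, beside 0.116%, 0.0512% and 1.59% of all features, and none was called lower. After median-of-ratios scaling 8, 2 and 4 were called higher and none lower, and the 4 in clone 2 were all among the 11. Their median log2 change was 0.67 in wild type, 0.18 in clone 1 and 0.75 in clone 2, beside 0, 0 and -0.28 for all features. A locus in Tnnt3, fast skeletal troponin T, had 3.36, 3.52, 4.48 and 2.29 TPM in wild type with MyoD and 0 without, and narrowly missed the call (log2 change 2.12, limma adjusted p = 0.0641). In clone 2 a locus of Neb, the nebulin gene of the thin filament, was already at 3.31, 3.04, 5.94 and 6.81 TPM without MyoD and at 12.7, 5.79, 7.18 and 7.4 with it. Between genes, 1 locus lay within 50 kb of a listed muscle gene, 272 bases from the tropomyosin gene Tpm1, tail to tail with it (chr9:67012734-67022318, plus strand), and it was seen in 5 clone 2 libraries only, at 1.21 to 4.19 TPM.

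The lines shared few MyoD calls: 1 locus, in Ttn, was called in the same direction in wild type and clone 1 (20% of the 5 and 16.7% of the 6). Wild type and clone 2 shared 2 (40% of 5 and 0.434% of 461), as did clone 1 and clone 2 (33.3% of 6 and 0.434% of 461). The lines do not share libraries, and a call in 1 line and not in another does not show a difference.

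That difference was tested directly. Between clone 1 and wild type the MyoD response differed at 2 member loci, both lower in clone 1 (0.0417% of member loci and, for all features, 0.0186% lower, 0% higher and 0.0186% in all), with 193 at an unadjusted p under 0.05. They are the locus opposite to Gm48197, at 1.76, 1.9, 3.35 and 2.4 TPM with MyoD and 0 without in wild type and the reverse in clone 1 (difference -3.66 ± 0.48, limma adjusted p = 0.0131), and the Zpbp locus (-2.88 ± 0.42, limma adjusted p = 0.0374). Neither passed with every transcript over the locus added (limma adjusted p = 1 and 0.0525). The count became 18 higher and 19 lower after median-of-ratios scaling, 13 without clone 1 MyoD replicate 2, 9 without clone 1 MyoD and plasmid replicate 1, 4 without clone 1 plasmid replicate 2, and 1 without each of 7 other libraries, namely both untreated wild type replicates, replicate 1 of wild type plasmid, wild type MyoD, clone 1 plasmid and clone 1 MyoD, and wild type MyoD and plasmid replicate 2.

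Between clone 2 and wild type the response differed at 44 loci upward (0.917%, beside 0.796% of all features) and 194 downward (4.04%, beside 8.16%), in all 4.96% beside 8.96%. After median-of-ratios scaling 5 were higher and 16 lower, and 15 were called both ways. The split was 11 and 19 with quantile normalization. The difference was 2.95 ± 0.27 for Ryr1 (limma adjusted p = 5.54e-06) and 2.40 ± 0.32 for Myh1 (limma adjusted p = 0.000197), and after median-of-ratios scaling Myh1 no longer passed (0.44, limma adjusted p = 0.542). Ryr1 and Myh1 passed the filter only through clone 2 with MyoD, so their p-values here are descriptions too.

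A between-gene locus at Gm32762 (chr14:41424590-41430575, plus strand) was at 0, 0, 1.94 and 0 TPM without MyoD and 7.31, 6.42, 3.54 and 2.74 with it in clone 2, against 0, 1.6, 1.48 and 0 and then 0 in wild type (difference 2.79 ± 0.61, limma adjusted p = 0.00845, and 0.248 after median-of-ratios scaling). The locus at the Gm4631 start, whose window is printed above, was at 1.74, 0, 0 and 0 and then 3.6, 4, 3.14 and 5.09 TPM in clone 2, and at 0, 1.29, 0 and 1.29 and then 0 in wild type. Its difference was 2.53 ± 0.47 (limma adjusted p = 0.00273, and 0.0913 after median-of-ratios scaling). At Gars the difference was 7.08 ± 0.49 (limma adjusted p = 3.34e-07) for the locus and 0.25 with every transcript over it added (limma adjusted p = 0.85).

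**Figure D4:**
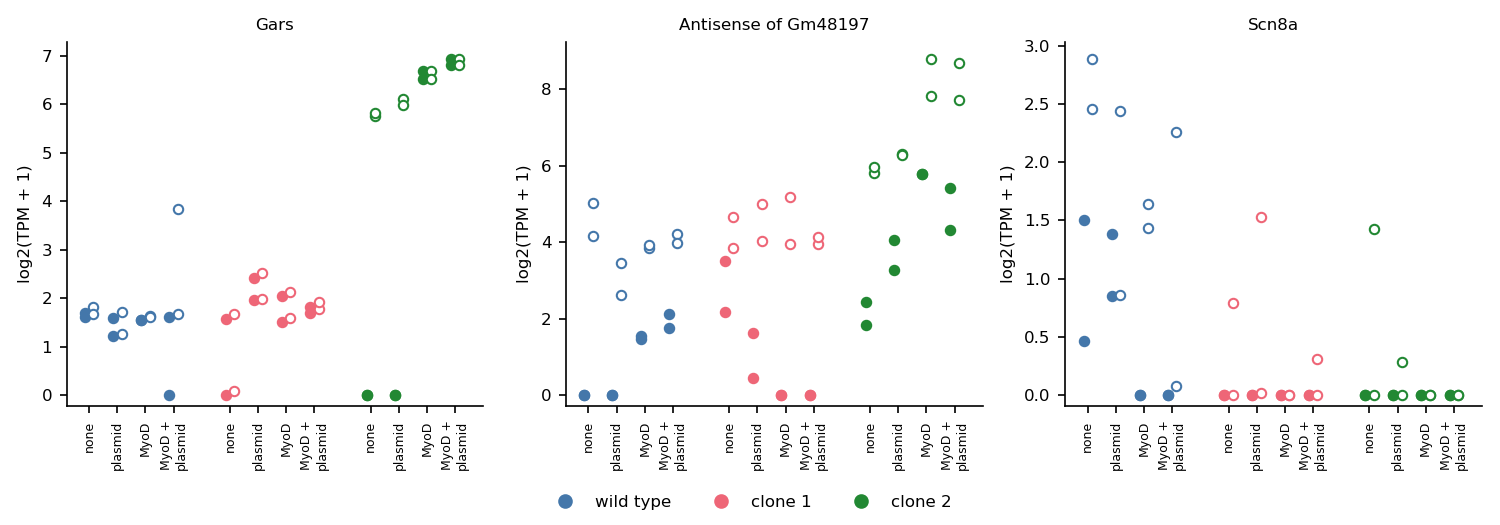
Each point is 1 library on log2(TPM + 1), by line and treatment, at Gars, at the locus opposite to Gm48197 and at Scn8a. Filled points are the member locus alone and open points every transcript over the locus. At Gars in clone 2 without MyoD the filled points are at 0 while the open points stand for 52.9 to 67.8 TPM.

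With the plasmid, 2 member loci rose (0.0417%, beside 0.00931% of all features higher) and none fell (0%, beside 0.00931% lower), with 0.0186% of all features called in all and 379 member loci at an unadjusted p under 0.05. The main one lies at 1700025L06Rik (chr7:46345772-46351188, minus strand), a 2-exon chain assembled in exactly the 12 libraries with plasmid. Its TPM was 0 in all 12 libraries without plasmid. With plasmid it was 5.78, 6.77, 2.64 and 8.16 in wild type, 41.6, 36.4, 16.8 and 53.3 in clone 1, and 11.9, 11, 4.48 and 3.47 in clone 2, each time in the order plasmid alone, then plasmid with MyoD. The log2 change was 3.60 ± 0.18 (limma adjusted p = 5.68e-08). Since the locus passed the filter only through the libraries with plasmid, that p-value is a description. Whether these exons lie in the plasmid's insert is not given in the sources used here, and RNA from the plasmid and from the cells' own gene cannot be told apart.

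The other plasmid call, in the lipid transporter gene Abca3, falls outside the naming rule because its arms overlap. It came from the 4 clone 2 libraries with plasmid, at 4.7, 8.94, 4.37 and 8.82 TPM, with at most 0.976 TPM elsewhere (log2 change 1.07 ± 0.15, limma adjusted p = 0.00848). The Abca3 locus passed the filter only through those libraries, so that p-value is a description. The call was lost after median-of-ratios scaling (limma adjusted p = 0.517) and with every transcript over the locus added (limma adjusted p = 0.95). The count was 4 without clone 2 plasmid replicate 2 and 5 without clone 2 MyoD and plasmid replicate 1, and with quantile normalization 1 was higher and 1 lower.

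Between clone 1 and wild type, over the 4 treatments, 34 member loci were higher (0.709%, beside 0.302% of all features) and 49 lower (1.02%, beside 6.06%), in all 1.73% beside 6.36%. After median-of-ratios scaling the split was 112 higher and 76 lower, and with quantile normalization 137 and 91. Of the 83 calls, 26 were between genes, 11 higher and 15 lower, or 2.32% of the between-gene loci tested.

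Several between-gene loci separated clone 1 from wild type without overlap. A 2-exon locus on chromosome 1 (chr1:163168582-163173406, plus strand), 50303 bases downstream of Gm22434, had 14.9 to 29.3 TPM in the 8 wild type libraries, with a median of 23.6. Clone 1 had 0 to 2.61 TPM and clone 2 had 0 to 7.53. Its log2 difference from wild type was -3.41 ± 0.38 in clone 1 (limma adjusted p = 2.85e-05) and -3.34 ± 0.38 in clone 2 (limma adjusted p = 8.44e-07), and the 2 comparisons share the wild type libraries. A locus on chromosome 8 (chr8:103235757-103244180, plus strand), 28555 bases upstream of Gm32531, had 8.49 to 19.9 TPM in wild type, at most 1.44 in clone 1 and 3.46 to 19.5 in clone 2 (clone 1 difference -3.33 ± 0.25, limma adjusted p = 7.1e-07). In the span of the RefSeq gene Gm40725 (chr10:83970215-83981279, plus strand) a locus of 5 members had 4.33 to 13.8 TPM in all 8 clone 1 libraries and was above 0 in 1 wild type library, at 0.649, and 1 clone 2 library, at 2.09 (clone 1 difference 3.02 ± 0.22, limma adjusted p = 5.12e-07). The Gm40725 locus passed the filter only through clone 1, so its p-value is a description.

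**Figure D5:**
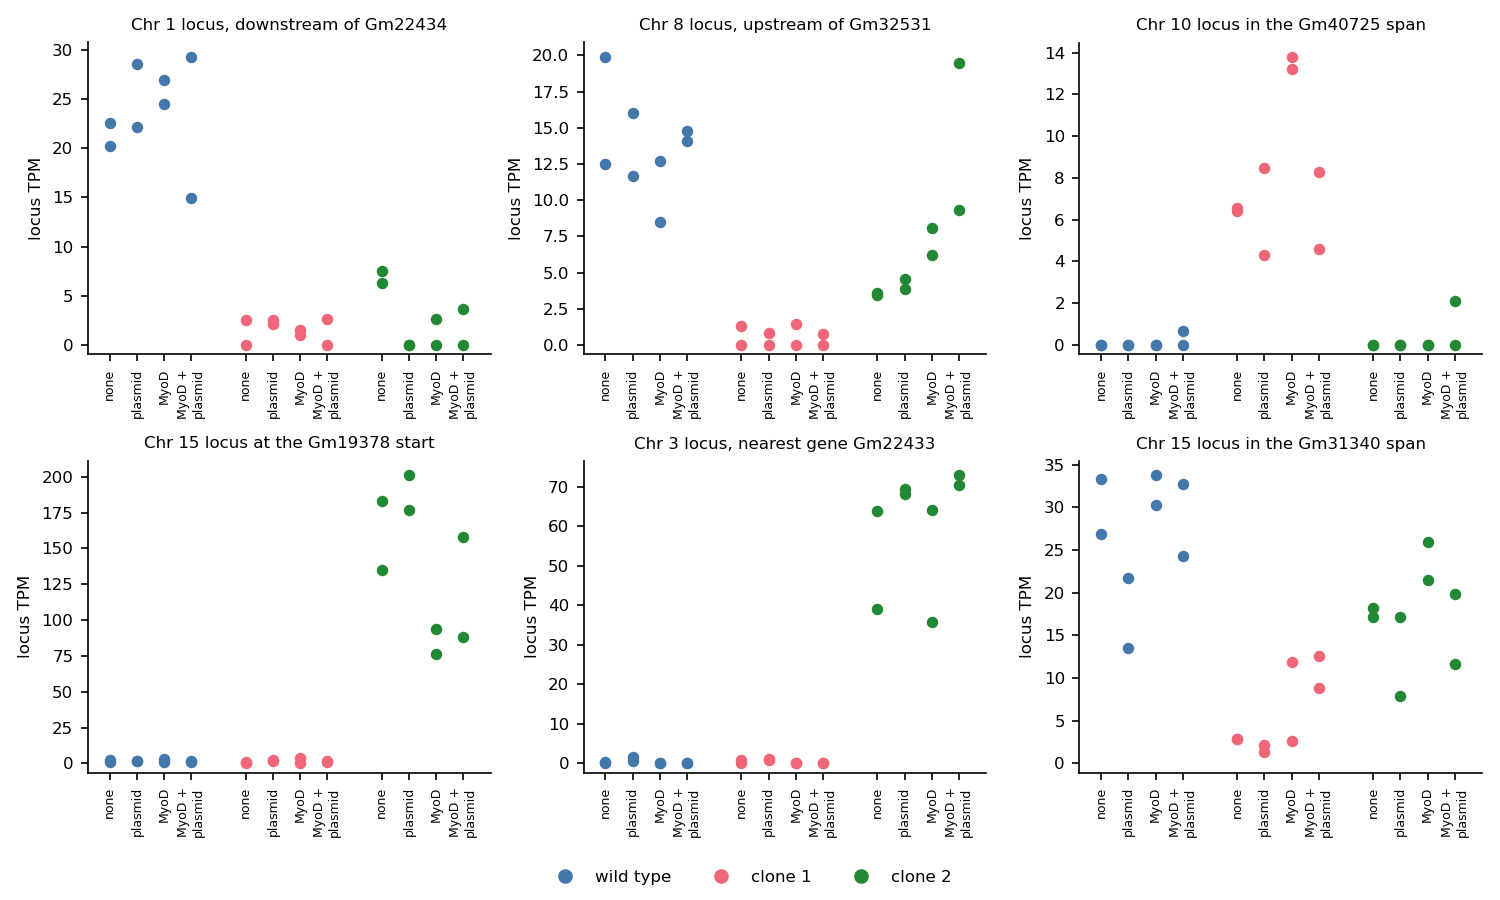
Locus TPM of 6 between-gene loci, each point 1 library, by line and treatment. The chromosome 1 and chromosome 8 loci are high in all 8 wild type libraries and at most 2.61 TPM in clone 1, the Gm40725 locus is high in clone 1, and the Gm19378 and chromosome 3 loci are high in clone 2.

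Other named clone 1 differences lay in genes. F11r, which codes for the junctional adhesion molecule A, had 6.22 to 20.3 TPM in clone 1 and at most 2.76 in wild type, from a chain that starts 18 bases from the RefSeq start (2.55 ± 0.23, limma adjusted p = 3.25e-06). A locus at the predicted gene Gm12641 had 30.3 to 52.6 TPM in clone 1 and 5.8 to 13.6 in wild type (2.19 ± 0.17, limma adjusted p = 7.01e-07). Mep1a, a secreted and membrane-bound metalloprotease, had 18.9 to 26.4 TPM in wild type and 0 to 6.5 in clone 1 (-2.66 ± 0.27, limma adjusted p = 1.35e-05).

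A further set of named clone 1 loci lay in a predicted gene, between genes and on a scaffold. A locus in Gm21680 fell from 8.52 to 17.2 TPM in wild type to at most 2.78 in clone 1 (-3.03 ± 0.38, limma adjusted p = 7.73e-05). A between-gene locus 6634 bases upstream of Gm48879 had 4.4 to 9.83 TPM in clone 1 and at most 4.02 in wild type (1.67 ± 0.38, limma adjusted p = 0.00836). A locus on the Y chromosome (chrY:90741161-90743855, plus strand) had 3.71 to 37 TPM in wild type and at most 3.23 in clone 1 (-2.64 ± 0.45, limma adjusted p = 0.00105). On chrUn_GL456392:22060-23578 a scaffold locus had 32.4 to 371 TPM in clone 1 and at most 32.1 in wild type (5.14 ± 1.02, limma adjusted p = 0.00309), next to 802 TPM in untreated clone 2 replicate 1.

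Between clone 2 and wild type, 706 member loci were higher (14.7%, beside 47.5% of all features) and 95 lower (1.98%, beside 2.68%), in all 16.7% beside 50.2%. After median-of-ratios scaling the split turned, to 78 higher and 340 lower, and with quantile normalization it was 83 and 413. Of the 801 calls, 169 held with the same sign under median-of-ratios scaling, 78 higher and 91 lower. Among between-gene loci 12.9% were called, 127 higher and 17 lower, before that scaling.

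Each of the largest clone 2 differences was several log2 units and held after median-of-ratios scaling. The Gm19378 locus on chromosome 15 (chr15:89766754-89768889, plus strand), 13523 bases from Syt10, had 135, 183, 177 and 201 TPM without MyoD and 94, 76.6, 87.9 and 158 with it in clone 2. It had 0.809 to 3.11 TPM in wild type and 0 to 4.07 in clone 1, and the difference from wild type was 5.64 ± 0.29 (limma adjusted p = 2.9e-11, and 2.89 after scaling). A between-gene locus on chromosome 3 (chr3:63090968-63137483, minus strand), head to head with Gm22433 at 23556 bases, had 35.8 to 72.9 TPM in clone 2 and at most 1.54 in the other lines (5.58 ± 0.19, limma adjusted p = 2.28e-13, and 3.19 after scaling). These loci were above 0 in 23 and in 14 of the 24 libraries.

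The other large clone 2 rises lay in genes. The largest was a locus that runs across Yjefn3 and Ndufa13, a subunit gene of respiratory complex I, at 345 to 674 TPM in clone 2 and 0 to 8.22 in wild type (chr8:69887787-69901728, minus strand; 6.22 ± 0.30, limma adjusted p = 1.58e-11, and 3.37 after scaling). Cox7a2l, which codes for a respiratory supercomplex factor, had a 2-exon locus at 38.9 to 67.3 TPM in clone 2, and above 0 in 1 other library, at 1.29 (5.50 ± 0.16, limma adjusted p = 3.53e-14, and 3.21 after scaling). The Cox7a2l locus passed the filter only through clone 2, so its p-value is a description. At the class I antigen presentation genes H2-Q1 and H2-Q2 a locus had 102 to 201 TPM in clone 2 and 1.12 to 3.36 in wild type (5.57 ± 0.16, limma adjusted p = 4.43e-14, and 4.07 with every transcript over it added). These H2-Q genes are near-identical copies, so its reads may be split between them.

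Besides the chromosome 1 locus, the named loci lower in clone 2 were in Arhgap23, Fat1 and Hsd17b13 and between genes. Arhgap23 had 14 to 43.4 TPM in wild type and 0 to 9.4 in clone 2 (-2.99 ± 0.40, limma adjusted p = 5.67e-06). Fat1, a large cadherin, was lower in clone 2, at 0 to 14.1 TPM, than in wild type, at 19 to 31.4, while clone 1 had 20.9 to 42.1 (-2.29 ± 0.17, limma adjusted p = 2.64e-09). Hsd17b13, which codes for a lipid droplet enzyme, had 3.44 to 7.6 TPM in wild type, 0 in clone 1 and at most 2.3 in clone 2 (-2.22 ± 0.23, limma adjusted p = 3.34e-07). The Hsd17b13 locus passed the filter only through wild type, so its p-value is a description. A between-gene locus on chromosome 15 (chr15:57516295-57530808, minus strand), 27868 bases upstream of Gm49235, had 1.18 to 12.5 TPM in wild type and at most 1.26 elsewhere (-2.33 ± 0.23, limma adjusted p = 1.09e-07). In wild type this last locus had 2.63, 4.14, 1.18 and 1.99 TPM without MyoD and 6.5, 12.5, 9.39 and 5.55 with it, which was no call.

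At the loci assembled in the most libraries, TPM before median-of-ratios scaling also differed between lines. In Nnt, which codes for the mitochondrial transhydrogenase, a wild type library had 27 to 49.6 TPM, a clone 1 library 13.8 to 26.2 and a clone 2 library 39.6 to 94, which overlaps wild type. In Trappc9, a vesicle trafficking subunit, it was 4.65 to 9.18, 1.7 to 5.7 and 19.8 to 66.5, and in Ndrg1, a stress-responsive gene, 3.3 to 21.7, 4.07 to 24.1 and 12.1 to 66.9. Clone 2 was called higher than wild type at Trappc9 (2.64 ± 0.24, limma adjusted p = 4.5e-08) and Ndrg1 (1.73 ± 0.44, limma adjusted p = 0.00253), but after median-of-ratios scaling both changed sign and neither was called (-0.17, limma adjusted p = 0.597, and -1.02, limma adjusted p = 0.0551). The Gm10800 locus of the chr2 window had 134 to 833 TPM in wild type, up to 9390 in clone 1 with 1 library at 0, and 227 to 18900 in clone 2. The only between-gene locus among these lies in the RefSeq span of Gm31340 (chr15:8800342-8807868, minus strand), 90315 bases from Slc1a3, where wild type had 13.5 to 33.8 TPM, clone 1 had 1.37 to 12.6 and clone 2 had 7.91 to 25.9. It was the lowest in clone 1, without overlap with wild type (-2.33 ± 0.24, limma adjusted p = 1.55e-05), whereas wild type and clone 2 overlapped.

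Named genes with the most similar pattern over the 24 libraries are given as a description, since 3 lines with different means dominate such a correlation. For the Gm19378 locus they were Pcna and Mcm3ap (Pearson r = 0.989 each), and for the chromosome 3 locus Gtf2e2, Ddt and Acads (r = 0.99 each). For the chromosome 8 locus near Gm32531 the closest was Nrep (r = 0.935). The locus opposite to Gm48197 was closest to Tnni1 and Trdn (r = 0.875 each), which code for slow troponin I and for triadin of the calcium release complex.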

How the data were processed

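The 24 deposited files are transcript assemblies, 1 per library. Reads were paired, 100 nt long and from a SMART-Seq v4 library of polyA RNA, per the labels' protocols. For mm10, HISAT2 2.1.0 and StringTie 1.3.3 are named in the submitters' processing notes, besides Trimmomatic 0.36, SAMtools 1.3 and bcl2fastq 2.19. The file headers name StringTie 2.1.2 instead, run with GENCODE vM21 as a guide and allowed to assemble unlisted transcripts. Per the file headers, each transcript carries the authors' TPM, FPKM and coverage, all inside its attribute text. Each library was assembled alone, so 1 RNA can be cut into different pieces in different libraries, and the listed TPM sum to 710312 to 979898 per library.

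Members and gene lists were chosen with earlier results of these data known. From the deposited files, chains were matched exactly, members were joined into loci, and a locus TPM summed all unnamed spliced transcripts at the locus that touch no named exon. Places come from GENCODE vM21 and RefSeq. Tests on log2(TPM + 1) used limma 3.58.1 (R 4.3.3) and its trend option, 12 group means, 24 libraries and 12 residual degrees of freedom. Features needed at least 1 TPM in at least 2 libraries, and p-values were adjusted by Benjamini and Hochberg over all features of a comparison. MyoD effects pooled the libraries with and without plasmid. The fit was checked on simulated data. Library totals are described without a test, because the rule that chose the members bears on them. Tables were handled in Python 3.11.15 and pandas 2.3.3.

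Named loci are up to 5 rises and 5 falls per comparison, by size, among called loci whose arms do not overlap and whose higher mean is at least 1 TPM. Added to these are the 10 loci of highest mean TPM, the 5 in the most files and those within 50 kb of a listed muscle gene. Alternatives were other pseudocounts, filters, scalings, units, features and library sets, a replicate block, array weights and leaving out each library. Of these, adding other transcripts to a locus, leaving out the 10 loci and calls under both scalings were chosen after seeing the data. Splice dinucleotides, polyadenylation signals and reading frames were not analysed here.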

Additional observations from a re-analysis of the deposited data

Results flagged for a closer look

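The response to MyoD differed between lines by a test of the difference itself (limma) in 2 member loci for clone 1 against wild type and in 238 for clone 2 against wild type. In clone 1 the locus opposite to Gm48197 had a difference of -3.66 (log2) and the Zpbp locus of -2.88, and neither passed with every transcript over the locus added. In clone 2 the response was higher at Gars (7.08), Ryr1 (2.95), the between-gene locus at Gm32762 (2.79), Gm4631 (2.53) and Myh1 (2.40). Gars was lost with every transcript over the locus added (limma adjusted p = 0.85), and Gm32762 (0.248), Gm4631 (0.0913) and Myh1 (0.542) were lost after median-of-ratios scaling. Ryr1 and Myh1 passed the filter only through clone 2 with MyoD, so their differences are descriptions.

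It was lower in clone 2 at the locus opposite to Dstn (-5.23), opposite to Mrc2 (-4.60), in Arhgef3 (-4.09), opposite to Trps1 (-3.63) and opposite to Stat3 (-3.50). Arhgef3 had 7.33, 8.54, 10.9 and 7.47 TPM in clone 2 without MyoD and 0 in all 4 libraries with it. The locus opposite to Trps1, a gene for a GATA-type repressor, had 11.9, 5.33, 6.59 and 12.8 TPM without MyoD and 0 with it. This locus passed the filter only through those clone 2 libraries without MyoD, so its difference is a description. After median-of-ratios scaling the Arhgef3 call was lost (limma adjusted p = 0.403), as were those at Mrc2 (0.0647) and Stat3 (0.623).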

How the results depend on the processing

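Counts of called member loci are given in the order MyoD in wild type, clone 1 and clone 2, plasmid, clone 1 against wild type, clone 2 against wild type, and the MyoD difference for clone 1 and clone 2. With a pseudocount of 5 they were 3, 1, 77, 1, 24, 188, 0 and 65, and after median-of-ratios scaling 21, 79, 35, 1, 188, 418, 37 and 21. Below, a comparison left out of a sentence stayed within 1.5 times its count. A pseudocount of 0.1 gave 13 for wild type, 25 for clone 1, 201 and 1483 for the lines and 4 for the clone 1 difference. Quantile normalization gave 32, 93 and 37 for MyoD, 228 and 496 for the lines and 50 and 30 for the differences. FPKM gave 3, 10 and 203 for MyoD, 1 for plasmid, 443 for clone 2 and 126 for its difference. Intron chains as features gave 11 for wild type, 39 and 491 for the lines and 12 for the clone 1 difference. Fits on only the groups compared gave 1, 1 and 154 for MyoD and 7 for the clone 1 difference, and array weights gave 16, 17 and 255 for MyoD and 8. For MyoD in clone 1, no filter gave 10, single-exon transcripts added 10, members in at least 3 files 3, and libraries without plasmid 19. The clone 1 difference was 5 with no filter and 0 with single-exon transcripts added, where plasmid gave 1. Host transcripts added gave 8 for wild type and 1 for plasmid, and every transcript over the locus gave 9, 1 and, for the clone 1 difference, 0. Calls held under both scalings were 35 for MyoD in clone 2, 169 for clone 2 against wild type and 15 for the clone 2 difference. The cause of these shifts was not tested.

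Replicate numbers did not pair the samples (same-number deviations correlated at -0.0418 to 0.0358). With the replicate block MyoD in clone 1 gave 3 calls and the clone 1 difference 1, and the other counts stayed within 1.5 times.

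Leaving out 1 library, the counts in that order ranged over 3 to 10, 2 to 63, 446 to 591, 2 to 5, 69 to 106, 792 to 874, 1 to 13 and 181 to 339. Members per library differed with MyoD by -69 to 121.7 (wild type), -187.8 to 49.92 (clone 1) and -720.3 to -591.3 (clone 2), and against wild type by -183 to -81.16 (clone 1) and 259.6 to 401.1 (clone 2). The sign turned without wild type MyoD replicate 2 (-69), clone 1 MyoD and plasmid replicate 1 (38.67) and clone 1 plasmid replicates 1 (26.58) and 2 (49.92). Summed TPM differed with MyoD by -64590 to -30990 for wild type cells, 10190 to 18940 for clone 1, and -21230 to -8176 for clone 2. Against wild type it differed by -19200 to -4344 for clone 1 and by -16580 to -278.5 for clone 2.

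With members in at least 3 files, the members per library of clone 1 against wild type differed by -124.4, and the summed TPM differed by -333.4 for MyoD in wild type, 5910 in clone 1, 4385 for clone 1 and 11270 for clone 2 against wild type. As FPKM it was 9863 for MyoD in clone 1 and -5354 in clone 2. Without the 10 loci it was 132.2 for MyoD in wild type, 1218 in clone 1, 358.4 for clone 1 and 5291 for clone 2 against wild type. Tests of single named loci kept their call in 649 cases and lost it in 83 over the alternatives other than leaving out 1 library, which ended a further 44. Transcripts of low abundance are missed at these depths, so a value of 0 is no measure of absence.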
